A study of Mus musculus with 95 samples.

Results

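Polycomb repressive complex 2 (PRC2) is the enzyme that methylates lysine 27 of histone H3, and the genes for its subunits are described here across 7 genotypes of mouse embryonic stem cells. The 10 genes, chosen by name, are Ezh2, Ezh1, Eed, Suz12, Rbbp4, Rbbp7, Mtf2, Phf19, Jarid2 and Aebp2, out of 23377 gene symbols in the count table. All 10 passed the filter on low counts, which kept 15464 genes. RNA-seq gave 2 libraries each for wild-type E14 cells and for knockout lines of 1 gene (Pcgf6-/- and Pcgf1-/-), of a pair of genes (Pcgf3/5-/- and Pcgf2/4-/-) or of 3 genes (Pcgf3/5/6-/- and Pcgf1/2/4-/-). PCGF proteins are the subunits that define the different forms of Polycomb repressive complex 1, and PCGF4 is the product of Bmi1. All these lines derive from E14, a mouse embryonic stem cell line. They grew on gelatin-coated dishes with serum, leukaemia inhibitory factor (LIF) and small-molecule inhibitors of the kinases GSK3β and MEK1/2. The knockouts were isolated as clones after Cas9 editing, and lines that lack several genes came from further editing of single knockout clones, so a line may differ from wild-type in more than the named genes. No label says that the libraries of a line came from separate cultures, so the p-values measure only the spread between these libraries. ChIP-seq peaks, called by the authors in 1 list per sample, were read at the starts of the same genes for histone marks, RING1B, PCGF proteins, SUZ12, WDR5 and USF1. Some PCGF1 lists used below came from other cells, labelled Ezh1/2-/- and Ring1a-/-_Ring1bfl. Some PCGF6 lists came from cells labelled shCtr, shMGA, shMGAdHLH, shE2F6 and shE2F6-MGAdHLH.

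PRC2 is built on a core of EZH2 or EZH1, which carry the methyltransferase SET domain, with EED, SUZ12 and a histone chaperone, RBBP4 or RBBP7. EED binds the methylated mark and stimulates the enzyme, and SUZ12 is the platform on which the other subunits assemble. The accessory subunits define alternative forms of the complex: MTF2 and PHF19 are Polycomb-like proteins that help it bind DNA, while JARID2 and AEBP2 belong to another form, in which JARID2 links it to H2AK119ub1, the ubiquitin mark placed by Polycomb repressive complex 1. In embryonic stem cells PRC2 occupies unmethylated CpG islands of silent developmental genes.

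Library totals ran from 2147968 to 7848161 counts. The wild-type libraries, with 6827571 and 6967931 counts, differed by less than sampling noise over the tested genes (chi-square over degrees of freedom 0.958, against 1.18 to 19.5 in the knockout pairs), and were summed and counted as 1 sample, so wild-type values carry no SD. Their range is narrow, so libraries that do not overlap it can still differ little from wild-type. Suz12 in Pcgf1/2/4-/-, for example, lay above both at a log2 fold change of 0.04. Pcgf1 mRNA was at 6.30% of wild-type in Pcgf1-/- and at 1.13% in Pcgf1/2/4-/-, and Pcgf6 had 0 counts in Pcgf6-/-. In the libraries labelled Pcgf3/5/6-/-, however, Pcgf6 mRNA was at 112% and Pcgf5 at 126% of wild-type, whereas Pcgf5 was at 42.4% in Pcgf3/5-/-. Pcgf2 and Bmi1 mRNA lay at 86.4% of wild-type or above in the lines labelled as lacking them, so mRNA levels do not check those labels. A list of 8 embryonic stem cell markers summed to between 1713 and 3346 CPM (counts scaled to 1e+06 per library) over all libraries. Markers of primitive endoderm summed to at most 5.06 CPM, and those of trophoblast to between 10.4 and 112 CPM. Those of mesendoderm summed to between 7.33 and 55.6 CPM, lowest in Pcgf6-/- and highest in wild-type.

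In wild-type cells the subunit genes spanned a wide range of mRNA levels. Per kilobase of exon, Rbbp7 (116 CPM per kb), Eed (112 CPM per kb) and Mtf2 (112 CPM per kb) were the most abundant. Rbbp4 stood at 39.3, Jarid2 at 32.9, Suz12 at 23.6, Ezh2 at 13.2, Aebp2 at 11.8 and Ezh1 at 8.99 CPM per kb. Phf19 was far below the others at 0.126 CPM per kb, from 3 and 6 counts in the 2 wild-type libraries. Ezh2 therefore exceeded its paralog Ezh1 by a ratio of 1.46 on the per-kb scale, and Jarid2 exceeded Aebp2 by 2.77. Exons of Rbbp4 (9.10% with Gm17525 and 8.94% with Sync), Mtf2 (7.51% with Tmed5), Rbbp7 (5.98% with Txlng), Suz12 (3.60% with Gm16706) and Ezh2 (2.81% with Gm17629) overlap exons of genes on the other strand. Whether counting used strand is not given in the sources used here, so reads there cannot be told apart.

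**Figure D1:**
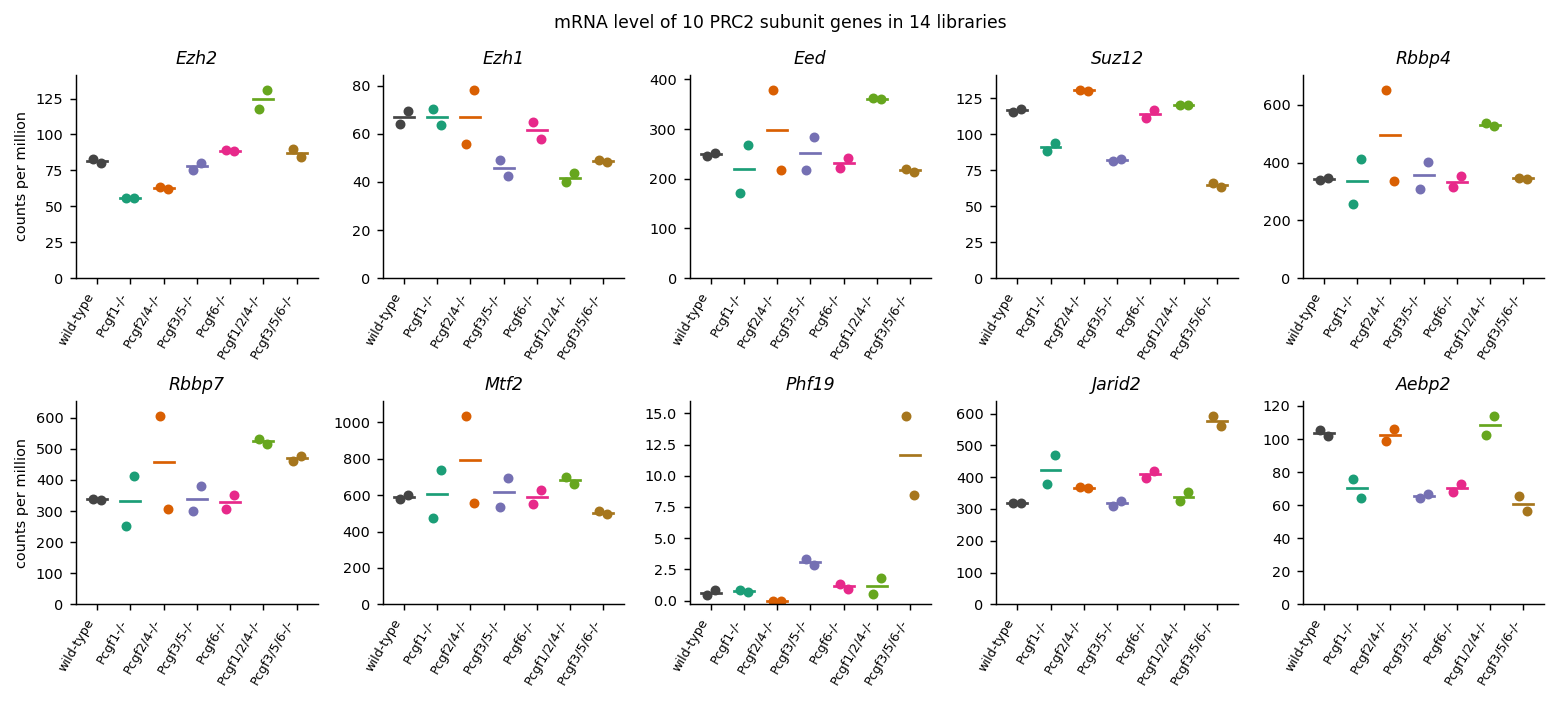
CPM of the 10 PRC2 subunit genes in each of 14 libraries, with 1 panel per gene, 1 point per library and a line at the group mean; the vertical axes differ between panels. Phf19 stands at 0 in both Pcgf2/4-/- libraries and at 8.43 and 14.8 CPM in the libraries labelled Pcgf3/5/6-/-, while Eed, Rbbp4, Rbbp7 and Mtf2 differ widely between the 2 libraries of some lines.

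The chromatin at the starts of these genes was first described in wild-type cells, by asking for a peak no more than 2.5 kb from any annotated start. H3K4me3, a mark of active and poised promoters, was present at 10 of 10 members, against 88.6% of 14218 tested genes with an annotation. H3K36me3, a mark of transcribed gene bodies, was present at 8 of 10 (38.2% of all genes) and absent from the starts of Phf19 and Jarid2. The H3K36me3 peak with the highest −log10 q lay 2384 bp downstream of the gene's first base at Eed and 3815 bp at Rbbp4. At Rbbp7, Aebp2, Mtf2, Ezh1, Suz12 and Ezh2 that peak belonged to an internal start, 12947 to 49602 bp downstream. The start of Phf19 alone carried RING1B, the catalytic subunit of Polycomb repressive complex 1 (1 of 10 members against 16.5% of genes). SUZ12 itself (17.7% of genes), H3K27me3 (13.1%), PCGF2 (14.4%) and H2AK119ub1 (3.69%) had a peak at 1 member each, which was again Phf19. PCGF6 had a peak at Ezh2 (7.47% of genes), and PCGF1 (2.48%) and PCGF3 (1.28%) at 0 members. WDR5, a subunit of H3K4 methyltransferase complexes, lay at Mtf2 (13.0% of genes) with a fold enrichment of 8.87 in the authors' list. USF1, an E-box binding factor, lay at Suz12, Rbbp4 and Phf19 (22.9% of genes). At Phf19 the USF1 peak belonged to an internal start, 8599 bp downstream of the gene's first base.

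**Figure D2:**
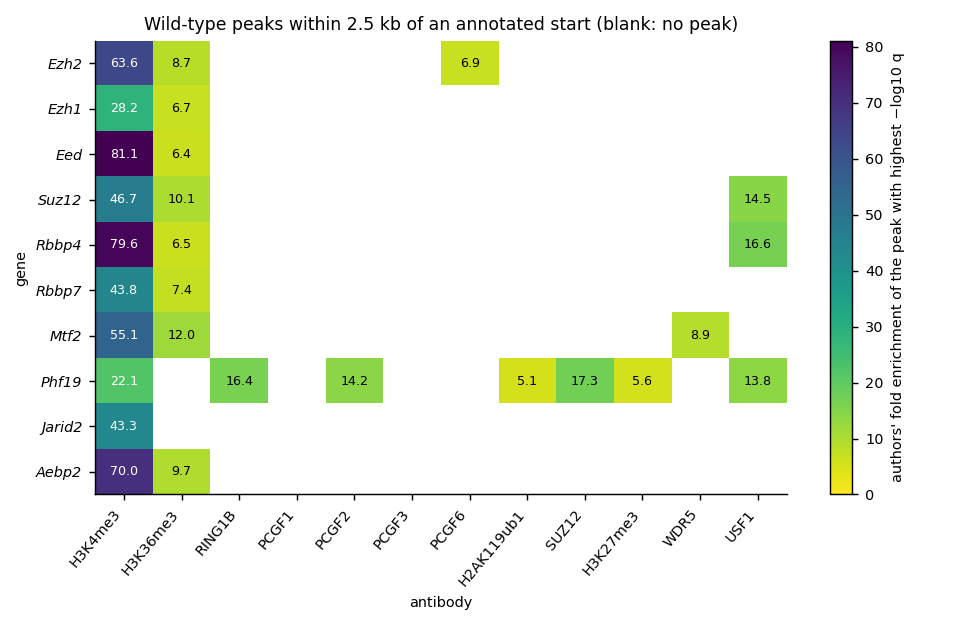
Wild-type peaks within 2.5 kb of an annotated start of each PRC2 subunit gene, with antibodies on the horizontal axis; colour and printed value give the authors' fold enrichment for the peak with the highest −log10 q in the window, and blank cells have no peak. H3K4me3 fills all 10 rows, while RING1B, PCGF2, H2AK119ub1, SUZ12 and H3K27me3 mark Phf19 and no other subunit gene.

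Promoter windows, 250 bases before to 50 after a start, were taken from RefSeq (build GRCm38.p6) for the genes whose starts carried Polycomb, PCGF6 or USF1 peaks. Each was placed by its single exact match in NCBIM37, the build of the peak lists. The sequences run 5′ to 3′ on the gene's strand, and capitals mark CG dinucleotides, the feature that PRC2 target promoters share. The windows lie at chr2:34769447-34769746 on the minus strand for Phf19, chr6:47544980-47545279 on the minus strand for Ezh2, chr11:79806358-79806657 on the plus strand for Suz12 and chr4:129012565-129012864 on the minus strand for Rbbp4.
Phf19: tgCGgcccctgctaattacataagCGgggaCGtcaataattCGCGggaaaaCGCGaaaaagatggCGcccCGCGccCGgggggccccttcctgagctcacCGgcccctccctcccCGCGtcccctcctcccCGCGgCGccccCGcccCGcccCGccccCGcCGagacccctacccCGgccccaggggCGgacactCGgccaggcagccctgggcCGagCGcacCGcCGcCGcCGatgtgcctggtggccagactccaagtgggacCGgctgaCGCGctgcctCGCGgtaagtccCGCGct
Ezh2: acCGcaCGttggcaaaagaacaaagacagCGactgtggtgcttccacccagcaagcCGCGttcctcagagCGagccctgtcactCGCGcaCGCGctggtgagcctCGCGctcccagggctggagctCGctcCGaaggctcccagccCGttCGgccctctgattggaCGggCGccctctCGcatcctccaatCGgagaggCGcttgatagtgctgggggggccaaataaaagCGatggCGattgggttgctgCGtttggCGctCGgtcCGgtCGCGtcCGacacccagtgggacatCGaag
Suz12: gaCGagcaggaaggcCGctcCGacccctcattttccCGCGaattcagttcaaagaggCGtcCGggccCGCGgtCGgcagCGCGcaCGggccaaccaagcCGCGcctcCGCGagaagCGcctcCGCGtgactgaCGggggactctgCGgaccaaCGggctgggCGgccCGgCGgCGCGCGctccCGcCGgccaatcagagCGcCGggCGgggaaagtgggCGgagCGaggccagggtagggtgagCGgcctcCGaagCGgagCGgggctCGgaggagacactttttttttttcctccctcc
Rbbp4: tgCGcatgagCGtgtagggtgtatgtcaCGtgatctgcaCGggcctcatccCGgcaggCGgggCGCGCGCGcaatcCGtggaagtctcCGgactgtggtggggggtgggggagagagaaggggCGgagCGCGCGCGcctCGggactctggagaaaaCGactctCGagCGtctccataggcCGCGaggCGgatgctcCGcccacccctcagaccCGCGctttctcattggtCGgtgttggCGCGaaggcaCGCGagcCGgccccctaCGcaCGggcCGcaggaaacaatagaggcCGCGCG

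All 10 members were found among the 32851 RefSeq windows, with 14 windows in all. The Phf19 window holds 38 CG dinucleotides, a number reached by 4.95% of windows, and RING1B, SUZ12 and PCGF2 peaks reached into it in wild-type cells. Suz12 (41, reached by 3.46% of windows), Rbbp4 (39, reached by 4.45%) and Rbbp7 (38) were as rich in CG and had no SUZ12 or RING1B peak in any of the wild-type lists. Ezh2 holds 31 (reached by 10.6% of windows), Mtf2 30 at its first start, Ezh1 23 and Eed 17, against a median of 7 over all windows. A CG-rich start was thus shared by most of these genes and a Polycomb peak by 1 of them. The E-box CACGTG, searched on both strands, occurs in 7.15% of windows and in 1 of the 4 sequences above, that of Rbbp4, at 224 bases before the start (offset -224). There the USF1 peak had a fold enrichment of 16.6, and at Suz12, whose window holds no CACGTG, it was 14.5. GCGGGAA or its complement TTCCCGC, an E2F-like motif also searched on both strands, occurs in 4.60% of windows and in those of Phf19 (offset -208) and Suz12 (offset -218). These matches describe the letters only.

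Among the core enzymes, Ezh2 changed in opposite directions in lines that share the loss of Pcgf1. Wild-type libraries had 82.9 and 80.2 CPM of Ezh2. Pcgf1-/- had 55.9 CPM in both libraries, and Pcgf1/2/4-/- had 118 and 131 CPM. All 4 values lay outside the wild-type pair, on opposite sides. Ezh2 fell in Pcgf1-/- by 0.54 on the log2 scale (SE 0.12, adjusted p = 0.00665, quasi-likelihood test of edgeR, adjusted by the Benjamini-Hochberg method, as for all adjusted p-values below unless named otherwise). In Pcgf1/2/4-/- it rose by 0.61 (SE 0.13, adjusted p = 0.00448). The direct difference between the 2 lines, tested because it was seen in the values, was 1.16 on the log2 scale (SE 0.11, adjusted p = 8.7e-06). The Pcgf1-/- call was lost with only the 2 groups in the fit (adjusted p = 0.252), with counts thinned to equal totals (0.0664) and without the Pcgf1-/- replicate 2 (0.065). Pcgf2/4-/- libraries had 63.1 and 62.1 CPM, below both wild-type libraries, at a log2 fold change of -0.38 and an adjusted p of 0.0587. For Ezh2 in that line the authors' deposited table gives an adjusted p of 0.0222. Ezh2 stood at 75.5 and 80.0 CPM in Pcgf3/5-/-, 88.9 and 88.5 in Pcgf6-/-, and 89.6 and 84.0 in the libraries labelled Pcgf3/5/6-/-, with none of these 3 lines past the threshold. In bulk RNA, fewer cells with a transcript and less of it per cell cannot be told apart.

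Ezh1 moved in 1 direction where it changed. Wild-type libraries had 64.1 and 69.6 CPM, against 40.0 and 43.7 in Pcgf1/2/4-/-, 49.1 and 42.7 in Pcgf3/5-/-, and 49.2 and 48.2 in the libraries labelled Pcgf3/5/6-/-. These 6 values did not overlap the wild-type pair. Ezh1 fell by 0.67 on the log2 scale in Pcgf1/2/4-/- (SE 0.19, adjusted p = 0.0189), by 0.54 in Pcgf3/5-/- (SE 0.17, adjusted p = 0.0477) and by 0.46 in the libraries labelled Pcgf3/5/6-/- (SE 0.18, adjusted p = 0.0471). None of the 3 calls held in DESeq2 (adjusted p = 0.0719, 0.144 and 0.202), and each was lost without either library of its own line (adjusted p = 0.118 and 0.0733, 0.0791 and 0.222, and 0.132 and 0.155). The last 2 calls were also lost without wild-type replicate 2 (0.105 and 0.0982). The authors' deposited tables give adjusted p-values of 0.00536, 0.00609 and 0.0438 for Ezh1 in these 3 lines, in the same order. Pcgf1-/- (70.4 and 63.9 CPM), Pcgf2/4-/- (55.6 and 78.4) and Pcgf6-/- (65.0 and 58.0) overlapped wild-type. Ezh2 over Ezh1, per kb of exon, was 1.46 in wild-type, 0.999 in Pcgf1-/-, 2.03 in Pcgf3/5-/- and 3.57 in Pcgf1/2/4-/-, where both genes had changed in opposite directions.

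Suz12 was lower in the lines labelled as lacking Pcgf3 and Pcgf5. Wild-type libraries had 115 and 118 CPM, Pcgf3/5-/- libraries 81.4 and 82.5, and the libraries labelled Pcgf3/5/6-/- 65.9 and 63.4. Those 4 values were the lowest of all 14 libraries. Suz12 fell by 0.51 on the log2 scale in Pcgf3/5-/- (SE 0.13, adjusted p = 0.017) and by 0.85 in the libraries labelled Pcgf3/5/6-/- (SE 0.13, adjusted p = 0.000151). The second call held under every alternative, with log2 fold changes between -0.92 and -0.66. In Pcgf3/5-/- it was lost without replicate 1 (adjusted p = 0.0978) or replicate 2 (0.0777) of that line and with thinned counts (0.0507). Between these 2 lines, in a test added after the values were seen, Suz12 differed by -0.34 (SE 0.11, adjusted p = 0.0218). Pcgf1-/- libraries had 88.6 and 93.6 CPM, also below wild-type, at an adjusted p of 0.0571, and of 0.0186 in the authors' deposited table. Suz12 stood at 111 and 116 CPM in Pcgf6-/-, 131 and 130 in Pcgf2/4-/-, and 120 in both Pcgf1/2/4-/- libraries, whose log2 fold change was 0.04 (SE 0.13, adjusted p = 0.848).

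Eed and the chaperones Rbbp4 and Rbbp7 passed the threshold in no line. Eed had 246 and 253 CPM in wild-type and 363 and 360 in Pcgf1/2/4-/-, above wild-type in both libraries, at a log2 fold change of 0.53 (SE 0.33, adjusted p = 0.237). Rbbp4, with 339 and 348 CPM in wild-type, had 537 and 526 in Pcgf1/2/4-/- (0.63, SE 0.37, adjusted p = 0.216). Rbbp7 had 337 CPM in both wild-type libraries, against 532 and 516 in Pcgf1/2/4-/- (adjusted p = 0.219) and 462 and 477 in the libraries labelled Pcgf3/5/6-/- (adjusted p = 0.314). The large errors come with a spread between libraries of 1 line, in which these genes and Mtf2 move together, as abundant genes in general did. Among the most highly expressed tested genes the median log2 ratio of replicate 1 over replicate 2 was 0.569 in Pcgf2/4-/- and -0.46 in Pcgf1-/-. Among genes below the median level it was -0.364 and 0.205. In Pcgf2/4-/- the 2 libraries had 380 and 217 CPM of Eed, 653 and 336 of Rbbp4, 606 and 308 of Rbbp7 and 1036 and 556 of Mtf2. The Pcgf1-/- libraries differed the other way, with 172 and 269 CPM of Eed and 257 and 414 of Rbbp4. Without Pcgf2/4-/- replicate 2, Rbbp4 was called higher there (log2 fold change 0.93, adjusted p = 0.0354). Pairs of these 2 lines stood farthest apart over all genes, at 19.5 and 10.1 times the sampling variance. With only Pcgf1/2/4-/- and wild-type in the fit, Eed (log2 fold change 0.57), Rbbp4 (0.67), Rbbp7 (0.67) and Mtf2 (0.24) were called higher, and the authors' deposited table gives adjusted p-values of 0.0469 for Eed and 0.0495 for Rbbp4 in that comparison. In the same kind of fit for the libraries labelled Pcgf3/5/6-/-, Rbbp7 (0.45) was called higher and Eed (-0.23) and Mtf2 (-0.25) lower.

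**Figure D3:**
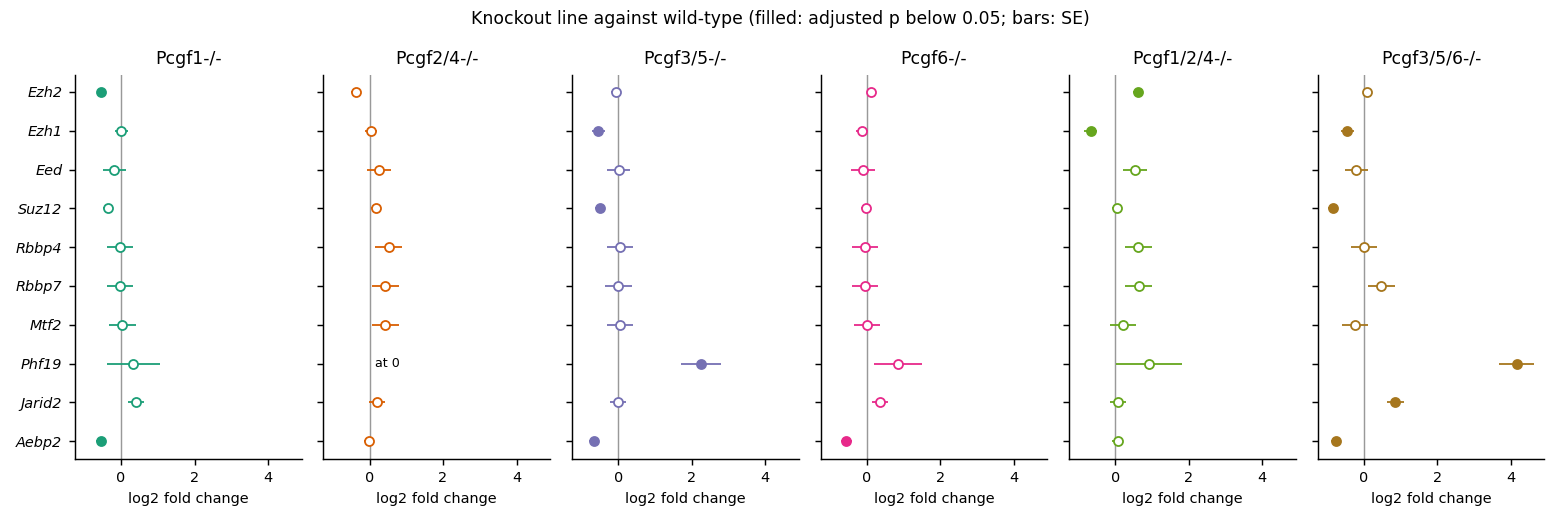
Log2 fold change of each PRC2 subunit gene in the 6 knockout lines against wild-type, with bars of 1 SE and filled points where the adjusted p was below 0.05. Suz12 and Aebp2 lie below 0 with filled points in both lines labelled as lacking Pcgf3 and Pcgf5, Ezh2 is filled on opposite sides in Pcgf1-/- and Pcgf1/2/4-/-, and Eed, Rbbp4, Rbbp7 and Mtf2 have open points with long bars.

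Of the Polycomb-like subunits, Mtf2 was abundant and passed the threshold in no line, with wild-type libraries at 582 and 601 CPM and all libraries between 477 and 1036. Its log2 fold change of 0.21 in Pcgf1/2/4-/- became -0.62 (adjusted p = 0.000206) with offsets fitted by loess on expression level, so its direction there depends on the scaling. Phf19 was the scarcest member and had the largest fold. It had 0.429 and 0.840 CPM in wild-type (3 and 6 counts), 3.34 and 2.87 in Pcgf3/5-/- (25 and 15 counts) and 14.8 and 8.43 in the libraries labelled Pcgf3/5/6-/- (47 and 25 counts). These 4 libraries were above the other 10. Phf19 rose by 2.26 on the log2 scale in Pcgf3/5-/- (SE 0.55, adjusted p = 0.0156) and by 4.16 in the libraries labelled Pcgf3/5/6-/-, where the mean was 11.6 ± 4.52 CPM (SD, n = 2; SE 0.48, adjusted p = 2.4e-05). In Pcgf3/5-/- the call was lost without wild-type replicate 1 (1.87, adjusted p = 0.0751), without Pcgf3/5-/- replicate 1 (2.14, adjusted p = 0.0895) and with thinned counts (adjusted p = 0.105).

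For the libraries labelled Pcgf3/5/6-/- the Phf19 call held under every alternative, at log2 fold changes of 2.91 with loess offsets to 7.61 with thinned counts, which leave few counts in wild-type. The 2 lines differed by 1.89 (SE 0.34, adjusted p = 0.000584) in a test added after the values were seen, and by 0.69 (adjusted p = 0.0744) with loess offsets. Pcgf2/4-/- had 0 counts in both libraries, at least 2.17-fold lower than wild-type against a floor of 3 counts over the group, with an adjusted p of 0.0731. Pcgf1-/- (0.873 and 0.685 CPM), Pcgf6-/- (1.37 and 0.918) and Pcgf1/2/4-/- (0.533 and 1.80) had levels near wild-type or overlapping it, and none passed the threshold. A list of 4 fibroblast markers moved with Phf19 only in part. It summed to 35.1 to 37.2 CPM in the libraries labelled Pcgf3/5/6-/- and 12.2 to 17.6 in Pcgf3/5-/-, against 7.42 to 10.6 in wild-type. Pcgf6-/- did not follow Phf19. Both its libraries, at up to 27.8 CPM, exceeded both Pcgf3/5-/- libraries, although Phf19 was not called there. The sums were 2.74 to 2.84 in Pcgf1-/-, 1.67 to 3.19 in Pcgf2/4-/- and 0.533 to 0.902 in Pcgf1/2/4-/-. Of these markers Dcn was at 0 in every group except the libraries labelled Pcgf3/5/6-/-. In Pcgf3/5-/- only Col1a1 was above wild-type (16.95 and 11.48 CPM against 8.71 and 6.02). Thy1 was below it there (0.667 and 0.766 CPM against 1.43 and 1.26), and Col1a2 was at 0. The 4 neural markers summed to 25.9 to 26.7 CPM in the libraries labelled Pcgf3/5/6-/-, nearly all of it Nes (25.6 CPM in both) with Sox1 and Neurog2 at 0, to 16.5 to 20.5 in Pcgf6-/-, 13.0 to 15.2 in Pcgf1-/- and 8.42 to 11.7 in Pcgf3/5-/-, against 4.06 to 6.43 in wild-type. Trophoblast markers moved in both directions in the libraries labelled Pcgf3/5/6-/-. Hand1 had 32.5 and 38.8 CPM against 1.14 and 0.280 in wild-type, and Elf5 11.35 and 6.75 against 0.143 and 0. Cdx2 had 18.6 and 20.2 CPM against 71.1 and 77.4. The part of other cell types in the Phf19 level was not tested.

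Jarid2, the cofactor that reads H2AK119ub1, rose in 1 line. Wild-type libraries had 318 and 320 CPM and the libraries labelled Pcgf3/5/6-/- 593 and 561, an increase of 0.85 on the log2 scale (SE 0.23, adjusted p = 0.00717) that held under every alternative. Pcgf3/5-/- libraries, at 311 and 326 CPM, did not differ from wild-type past the threshold, and the direct difference between these 2 lines, also added after the values were seen, was 0.86 (SE 0.18, adjusted p = 0.00136). Jarid2 was above both wild-type libraries in Pcgf1-/- (378 and 469 CPM, adjusted p = 0.214) and Pcgf6-/- (399 and 420 CPM, adjusted p = 0.231). DESeq2 called both higher (adjusted p = 0.0318 and 0.0486). The authors' deposited tables give an adjusted p of 0.00835 for Jarid2 in Pcgf1-/- and 0.0203 in Pcgf6-/-. For Pcgf6-/- the column names of that comparison carry another clone number than the count columns.

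Aebp2, a zinc finger protein that stimulates the enzyme, was the member called in most lines, always lower. Wild-type libraries had 105 and 102 CPM, against 75.8 and 64.6 in Pcgf1-/-, 64.3 and 67.0 in Pcgf3/5-/-, 68.2 and 73.1 in Pcgf6-/-, and 65.3 and 56.7 in the libraries labelled Pcgf3/5/6-/-. These 8 values lay below wild-type without overlap. Aebp2 fell by 0.76 on the log2 scale in the libraries labelled Pcgf3/5/6-/- (SE 0.15, adjusted p = 0.000775), which held under every alternative. The falls of 0.66 in Pcgf3/5-/- (adjusted p = 0.00743), 0.55 in Pcgf6-/- (adjusted p = 0.00605) and 0.56 in Pcgf1-/- (adjusted p = 0.0122) were lost without 1 library each: Pcgf3/5-/- replicate 1 (adjusted p = 0.0551), Pcgf6-/- replicate 1 (0.0556) and Pcgf1-/- replicate 2 (-0.34, 0.166). In Pcgf1-/- the call was also absent from DESeq2 (adjusted p = 0.0657) and with only the 2 groups in the fit (0.234). Pcgf2/4-/- (98.7 and 106 CPM) and Pcgf1/2/4-/- (102 and 114 CPM) overlapped wild-type. Jarid2 over Aebp2, per kb of exon, went from 2.77 in wild-type to 5.44 in Pcgf1-/- and 8.52 in the libraries labelled Pcgf3/5/6-/-.

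Counted together, 2 of 10 members were called in Pcgf1-/-, both lower, where 22.8% of all tested genes were called. Pcgf2/4-/- had 0 calls by edgeR, against 14.7% of genes, with 2 members at an unadjusted p under 0.05 and 0 called by DESeq2. Pcgf3/5-/- had 4 (1 higher and 3 lower, 13.9% of genes), and Pcgf6-/- had 1, lower (38.7% of genes). Pcgf1/2/4-/- had 2, 1 in each direction (25.0% of genes), and the libraries labelled Pcgf3/5/6-/- had 5, 2 higher and 3 lower (45.8% of genes). The lines thus differed in which members moved, and in no line were all core subunits called in 1 direction. The median log2 fold change of the members against that of all tested genes was -0.03 against -0.05 in Pcgf1-/-, 0.18 against 0 in Pcgf2/4-/-, 0.0027 against 0 in Pcgf3/5-/-, -0.04 against 0.03 in Pcgf6-/-, 0.37 against -0.11 in Pcgf1/2/4-/- and -0.10 against 0.05 in the libraries labelled Pcgf3/5/6-/-. The 6 comparisons share the wild-type sample.

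Peaks at the starts were then read in the knockout lines. H3K4me3 stayed at 10 of 10 members in Pcgf1-/- (87.6% of genes), Pcgf2/4-/- (88.3%), Pcgf3/5-/- (87.7%) and Pcgf6-/- (89.8%). H3K36me3 was at 8 members in Pcgf1-/- (45.5%), Pcgf3/5-/- (45.9%) and Pcgf6-/- (45.3%) and at 7 in Pcgf2/4-/- (41.4%), where Eed had none at its start. Over the body of Eed, H3K36me3 peaks still covered 80.7% of the span in Pcgf2/4-/-, against 76.8% in wild-type. SUZ12 had a peak at 1 member, Phf19, in Pcgf1-/- (16.3% of genes), Pcgf2/4-/- (23.9%), Pcgf3/5-/- (18.5%), Pcgf6-/- (15.1%), Pcgf1/2/4-/- (13.6%) and Pcgf3/5/6-/- (13.4%). H3K27me3 likewise lay at Phf19 and no other member in Pcgf1-/- (19.8% of genes), Pcgf2/4-/- (37.5%), Pcgf3/5-/- (21.7%), Pcgf6-/- (14.1%), Pcgf1/2/4-/- (5.11%) and Pcgf3/5/6-/- (21.0%). No gene for a core subunit therefore had a peak of its own complex or of its mark in any of these lists.

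RING1B was at Phf19 in Pcgf1-/- (1 member, 17.1% of genes) and Pcgf6-/- (1 member, 13.0%), and at Phf19 alone in Pcgf3/5/6-/- (7.53%). In Pcgf2/4-/- it was also at Ezh2 (2 members, 19.7%), with a fold enrichment of 5.48 in the authors' list, and in Pcgf3/5-/- also at Aebp2 (2 members, 17.2%), with 6.44. Pcgf1/2/4-/- had 2 RING1B lists: the first had a peak at Ezh2 (1 member, 8.21% of genes, fold enrichment 7.11) and none at Phf19, and the second had 0 members (7.47%). H2AK119ub1 varied with the number of peaks called, which ran from 1070 to 128786 over the lists. It was at 1 member in Pcgf1-/- (10.1% of genes), 4 in Pcgf2/4-/- (45.6%), 9 in Pcgf3/5-/- (79.8%), 1 in Pcgf6-/- (7.14%), 5 in Pcgf3/5/6-/- (39.0%) and 0 in both Pcgf1/2/4-/- lists (1.75% and 0.844%). These counts track the background share in each list.

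PCGF6 lay at the start of Ezh2 in several lists. The wild-type peak was 324 bp wide with a fold enrichment of 6.93, and peaks there had 13.1 in Pcgf1-/-, 16.7 in Pcgf2/4-/- and 10.9 in cells with the control hairpin shCtr. None was called at Ezh2 in Pcgf3/5-/- or in Pcgf6-/-, the line without the protein. PCGF6 peaks were at 3 members in Pcgf1-/- (23.2% of genes; Ezh2, Suz12 and Aebp2), 5 in Pcgf2/4-/- (42.3%), 1 in Pcgf3/5-/- (7.05%; Aebp2), 0 in Pcgf6-/- (2.12%) and 3 in shCtr (25.9%; Ezh2, Suz12 and Aebp2). In the 4 lists labelled shMGA, shMGAdHLH, shE2F6 and shE2F6-MGAdHLH, after the PCGF6 partners MGA and E2F6, 0 members had a PCGF6 peak. Of all genes, 1.01% to 2.95% had one in these lists. Ezh2 mRNA in Pcgf6-/-, at a mean of 88.7 CPM, did not differ from wild-type past the threshold (log2 fold change 0.12, adjusted p = 0.499). Aebp2, the other member with PCGF6 peaks in 4 of these lists, had none in the wild-type list. Aebp2 mRNA fell in Pcgf6-/- (log2 fold change -0.55), and also in Pcgf1-/- (-0.56) and Pcgf3/5-/- (-0.66), where PCGF6 peaks were called at its start. In Pcgf2/4-/-, which had such a peak too, it was at -0.01. A link between these peaks and Aebp2 mRNA was not tested.

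Phf19, the subunit gene with Polycomb peaks at its own start, was read in more detail. The gene spans chr2:34749277-34769546 on the minus strand in NCBIM37, and the wild-type RING1B (chr2:34768212-34769542) and SUZ12 (chr2:34768249-34769535) peaks cover its 5′ end and reach into the promoter window from its 3′ side. Fold enrichments in the authors' lists describe each list and are not on 1 scale across lists. For SUZ12 the Phf19 start peak had 17.3 in wild-type, 15.6 in Pcgf1-/-, 16.5 in Pcgf2/4-/-, 18.6 in Pcgf3/5-/-, 26.1 in Pcgf6-/-, 11.01 in Pcgf1/2/4-/- and 10.0 in Pcgf3/5/6-/-. H3K27me3 had 5.62 in wild-type, 12.2 in Pcgf1-/-, 22.0 in Pcgf2/4-/-, 10.8 in Pcgf3/5-/-, 8.19 in Pcgf6-/-, 6.64 in Pcgf1/2/4-/- and 11.2 in Pcgf3/5/6-/-. RING1B had 16.4 in wild-type, 7.07 in Pcgf2/4-/- and 5.93 in Pcgf3/5/6-/-, between 16.3 and 17.9 in Pcgf1-/-, Pcgf3/5-/- and Pcgf6-/-, and no peak in either Pcgf1/2/4-/- list. SUZ12 and H3K27me3 peaks were thus called at Phf19 in all 7 genotypes. Peaks and mRNA come from separate samples matched by label, and the RNA libraries with the highest Phf19 mRNA carry the label Pcgf3/5/6-/-.

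The PCGF proteins at Phf19 differed by list. PCGF2 had a fold enrichment of 14.2 in wild-type, 12.2 in Pcgf1-/-, 12.6 in Pcgf3/5-/- and 27.6 in Pcgf6-/-, with no peak at Phf19 in Pcgf2/4-/-. PCGF1, which had no peak there in wild-type, had 7.88 in Pcgf2/4-/-, 5.99 in Pcgf6-/-, 6.63 in Ezh1/2-/- cells and 10.2 in Ring1a-/-_Ring1bfl cells. H3K27me3 peaks covered 7.10% of the 20270 bp span of Phf19 in wild-type and 69.7% (14123 bp) in Pcgf2/4-/-. Cover was wider throughout that list, whose peaks took up 81.6 Mb of the genome against 6.33 Mb in the wild-type list. At Phf19 the share was 24.4% in Pcgf1-/-, 11.1% in Pcgf3/5-/-, 9.76% in Pcgf6-/-, 3.09% in Pcgf1/2/4-/- and 16.2% in Pcgf3/5/6-/-. H3K36me3 peaks covered 0 bp of Phf19 in the 5 lines with such a list. By contrast they covered 76.8% of Eed, 74.7% of Mtf2, 74.4% of Rbbp4, 65.7% of Suz12, 43.9% of Rbbp7, 28.0% of Aebp2, 23.3% of Ezh1, 22.4% of Ezh2 and 18.9% of Jarid2 in wild-type. Ordered by its mRNA, the lines run from Pcgf2/4-/- at 0 through wild-type, Pcgf1-/-, Pcgf6-/- and Pcgf1/2/4-/-, whose libraries lie between 0.429 and 1.80 CPM, to Pcgf3/5-/- and then the libraries labelled Pcgf3/5/6-/-. Among those 4 middle lines wild-type overlaps Pcgf1-/- and Pcgf1/2/4-/-, and their neighbours were not tested against each other.

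**Figure D4:**
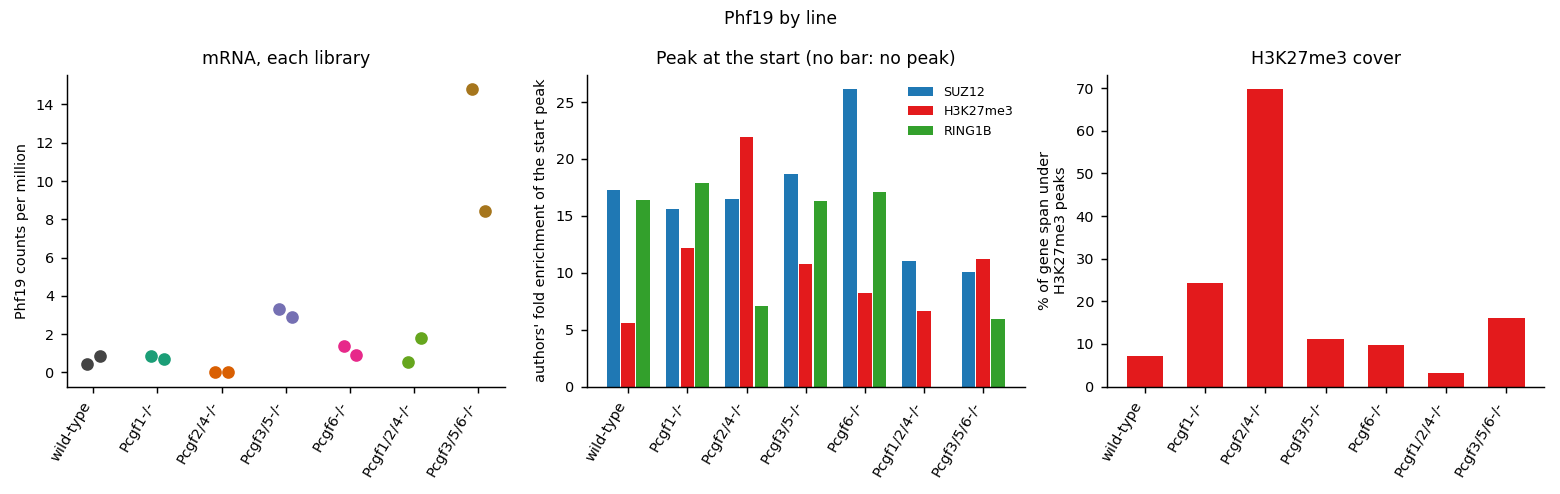
Phf19 in the 7 genotypes: CPM in each library (left), the authors' fold enrichment of the SUZ12, H3K27me3 and RING1B peak at its start, where no bar means no peak (middle), and the percentage of the gene span under H3K27me3 peaks (right). Cover of Phf19 is widest in Pcgf2/4-/-, at 69.7%, from a list that covers 81.6 Mb of the genome against 6.33 Mb in wild-type; bars in the middle and right panels come from separately called lists and are not on 1 scale.

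Whether subunit mRNA went with the loss of PRC2 from chromatin was examined by setting each line's mRNA beside the share of wild-type peaks that it kept, counted as at least 1 bp of overlap. Each ChIP share rests on 1 list per line, so it has no replicate and no test, and its 95% Wilson interval covers counting error only. Of 6473 wild-type SUZ12 peaks, 91.8% (91.1 to 92.5) were kept in Pcgf2/4-/-, 84.3% (83.4 to 85.2) in Pcgf3/5-/-, 79.4% (78.4 to 80.3) in Pcgf6-/-, 78.1% (77.0 to 79.1) in Pcgf1-/-, 70.0% (68.9 to 71.1) in Pcgf3/5/6-/- and 66.5% (65.3 to 67.6) in Pcgf1/2/4-/-. Of 8063 wild-type H3K27me3 peaks, 95.3% (94.8 to 95.7) were kept in Pcgf2/4-/-, 89.2% (88.5 to 89.8) in Pcgf1-/-, 87.1% (86.4 to 87.8) in Pcgf3/5-/-, 81.8% (80.9 to 82.6) in Pcgf3/5/6-/-, 62.4% (61.4 to 63.5) in Pcgf6-/- and 24.4% (23.5 to 25.4) in Pcgf1/2/4-/-. RING1B, of 5454 peaks, was lowest in the same line, at 23.8% (22.7 to 24.9) and 20.1% (19.1 to 21.2) in the 2 Pcgf1/2/4-/- lists. A kept share also depends on how many peaks each list holds.

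The core subunits did not line up with these shares in 1 way. Pcgf1/2/4-/-, with the lowest share of both SUZ12 and H3K27me3 peaks kept, had more Ezh2 mRNA than wild-type, Suz12 at 120 CPM against 116, and Eed above wild-type in both libraries, and Ezh1 was the core gene called lower. The Pcgf3/5/6-/- ChIP list had the next lowest SUZ12 share. The RNA libraries with that label are separate samples. They had the lowest Suz12 mRNA, at 64.7 ± 1.76 CPM (SD, n = 2), while Ezh2 and Eed did not pass the threshold. Pcgf6-/- kept 62.4% of H3K27me3 peaks, and Ezh2, Ezh1, Eed and Suz12 passed the threshold in none of 4 tests. Pcgf2/4-/- kept the largest shares and had 0 members called. Pcgf1-/- had Ezh2 called lower and kept 89.2% of H3K27me3 peaks. Ezh2 was thus highest in the line that kept the smallest share of H3K27me3 peaks and lowest in one that kept most of them.

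**Figure D5:**
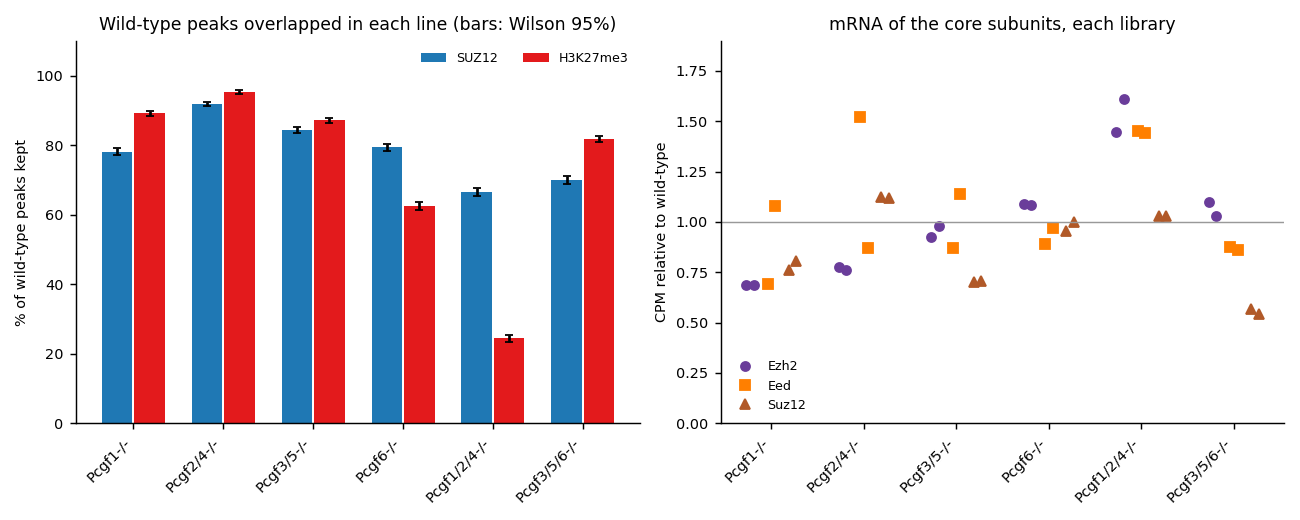
Share of wild-type SUZ12 and H3K27me3 peaks overlapped by a peak in each knockout line, with Wilson 95% intervals (left), and CPM of Ezh2, Eed and Suz12 in each library relative to wild-type, where the grey line is 1 (right). Pcgf1/2/4-/- has the shortest bars, 66.5% and 24.4%, with Ezh2 and Eed above the line, and Suz12 lies farthest below it in the libraries labelled Pcgf3/5/6-/-.

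Other genes of the pathway were counted in lists. For each list the share of all tested genes called in the line, given above, is repeated in brackets. Of 7 genes for further PRC2-associated proteins, 2 were called lower in Pcgf1-/- (22.8%), 1 lower in Pcgf2/4-/- (14.7%), 1 lower in Pcgf3/5-/- (13.9%), 1 higher and 1 lower in Pcgf6-/- (38.7%), 2 lower in Pcgf1/2/4-/- (25.0%) and 2 higher in the libraries labelled Pcgf3/5/6-/- (45.8%). AU015836, the mouse gene for EZHIP, an inhibitor of PRC2, had the largest range. It stood at 3.68 CPM in wild-type and had 0 counts in Pcgf1-/-, at least 16.6-fold lower (adjusted p = 9.25e-05), and 20.5 and 22.3 CPM in the libraries labelled Pcgf3/5/6-/-, an increase of 2.53 on the log2 scale (SE 0.28, adjusted p = 1.82e-05). Its mean was 0.992 CPM in Pcgf2/4-/- (adjusted p = 0.0146) and 1.37 CPM in Pcgf3/5-/- (adjusted p = 0.0229). Leaving out Pcgf2/4-/- replicate 2 (adjusted p = 0.069), wild-type replicate 2 (0.0829 in Pcgf3/5-/-) or either Pcgf3/5-/- library (0.174 and 0.0619) ended the call concerned. E130012A19Rik, the gene for EPOP, a PRC2 partner that binds elongin, fell from 36.7 to 18.3 CPM in Pcgf1-/- (log2 fold change -0.99, adjusted p = 0.000719, and 0.0881 with only the 2 groups in the fit). It rose in Pcgf6-/- (0.54, adjusted p = 0.0118, and 0.076 without Pcgf6-/- replicate 1) and in the libraries labelled Pcgf3/5/6-/- (0.58, adjusted p = 0.00849), and both of these calls were lost with thinned counts (0.328 and 0.147). Lcorl, the PALI2 host gene, was the list's most changed gene in Pcgf6-/- (log2 fold change -1.86, adjusted p = 1.94e-05), and Lcor, which encodes PALI1, in Pcgf1/2/4-/- (-1.03, adjusted p = 0.0388). The Lcor call was lost in DESeq2 (adjusted p = 0.0872) and without wild-type replicate 2 (0.0628) or Pcgf1/2/4-/- replicate 1 (0.17) or 2 (0.133).

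Of the 2 H3K27 demethylases, which remove the mark, 1 was called higher in Pcgf1-/- (22.8%) and 1 lower in Pcgf1/2/4-/- (25.0%). Kdm6a fell from 82.9 to 38.0 ± 1.03 CPM (SD, n = 2) in Pcgf1/2/4-/- (log2 fold change -1.12, SE 0.16, adjusted p = 0.000416), which held under every alternative. Kdm6b was called higher in Pcgf1-/- (adjusted p = 0.0488), a call lost in DESeq2 (0.0562) and without wild-type replicate 1 (0.0891) or Pcgf1-/- replicate 1 (0.101) or 2 (0.0837), and neither was called elsewhere. Among 15 genes of other complexes that contain RBBP4 or RBBP7, 2 were called lower in each of Pcgf1-/- (22.8%), Pcgf2/4-/- (14.7%), Pcgf3/5-/- (13.9%) and Pcgf6-/- (38.7%), and 3 higher in Pcgf1/2/4-/- (25.0%) and in the libraries labelled Pcgf3/5/6-/- (45.8%), near or below the background in each line. Mbd3, a subunit of the NuRD deacetylase complex, led in Pcgf1-/- (-0.90, adjusted p = 0.00474), Mta1, of the same complex, in Pcgf6-/- (-1.35, adjusted p = 5.44e-05), and the corepressor gene Sin3b in the libraries labelled Pcgf3/5/6-/- (1.03, adjusted p = 0.00293). Of 14 genes for other SET domain methyltransferases, 5 were called lower in Pcgf1/2/4-/- (25.0%) and 4 in the libraries labelled Pcgf3/5/6-/- (45.8%, above the list's share), with none higher in either. Setd2, which makes H3K36me3, led in both, at -1.08 (adjusted p = 0.000626) and -1.34 (adjusted p = 2.74e-05). The same list had 1 higher and 4 lower in Pcgf1-/- (22.8%), 0 in Pcgf2/4-/- (14.7%), 1 lower in Pcgf3/5-/- (13.9%) and 2 lower in Pcgf6-/- (38.7%). Of 14 proliferation genes, 1 was called lower in each of Pcgf1-/- (22.8%), Pcgf6-/- (38.7%) and Pcgf1/2/4-/- (25.0%). In Pcgf2/4-/- (14.7%) and Pcgf3/5-/- (13.9%) 0 were called. The libraries labelled Pcgf3/5/6-/- had 1 higher and 1 lower (45.8%), and the list's share was below the background in each line. In Pcgf1/2/4-/-, where Ezh2 rose, the list had 1 call, Mki67, which fell from 147 to 73.2 CPM (adjusted p = 0.000509), while its median log2 fold change was 0.61, against -0.11 over all tested genes.

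Genes with the most similar pattern were found by Pearson correlation of mean log2 CPM over the 7 groups, among 11734 genes, as a description in which all points share these libraries. Nt5dc3 (r = 0.98) and Tmem131 (0.98) were closest to Ezh1, Snord33 (0.96) and Memo1 (0.96) to Ezh2, Rab18 (0.99) and Myl12b (0.99) to Eed, and Wdr76 (0.97) and Bpnt1 (0.96) to Suz12.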

How the data were processed

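The authors deposited whole-number counts per gene symbol for 14 RNA-seq libraries, unnormalized. Their 6 tables of comparisons hold log2 fold changes with raw and adjusted p-values, per the file headers, and are quoted only where named. Those adjusted p-values are no independent check on the calls made here. The wild-type libraries were summed to 1 sample here, which the authors' tests may not have done. The mean values in those tables, on a signal scale that the authors normalized by size factors, per the file headers, were not used here, nor were other columns (standard errors and test statistics). ChIP-seq peaks came as 80 lists, 1 for each sample, with 1189711 peaks, in which the authors' fold enrichment (a ratio), −log10 p and −log10 q describe each peak, per the file headers. Per the submitters' processing notes the tools included bcl2fastq 2, TopHat2 2.1.1, Bowtie 1.2.2, Picard 1.62, HTSeq 0.7.2, DESeq2 (version listed as 3.7) and MACS2 2.1.1, with build mm9. Neither their roles, the strand setting nor the annotation is given in the sources used here. A fly spike-in went into the histone mark ChIP, per the labels' protocols, and scaling by it was not used here.

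Counts were tested with edgeR 4.0.16 (R 4.3.3): TMM factors, filterByExpr and 1 quasi-likelihood fit over all 7 groups, with the wild-type libraries summed to 1 sample (13 samples). The Benjamini-Hochberg method adjusted p-values over 15464 genes, with a threshold of 0.05. The fit had a common dispersion of 0.0178, which is 13.3% as a coefficient of variation. CPM used TMM-adjusted library sizes. A group with 0 counts was set to a floor of 3 counts over its libraries for a fold bound. Floors and the Wilson intervals, which have 95% confidence (statsmodels 0.14.6), cover counting error only: without molecular identifiers, reads may share a molecule. Peaks were assigned within 2.5 kb of any GENCODE M1 start in NCBIM37, which is mm9. Alternatives were DESeq2 1.42.0, RLE factors, no filter, only the 2 groups compared, wild-type as 2 libraries, a replicate block, loess offsets (limma 3.58.1), thinned counts and leaving out each replicate; for peaks, a 1 kb window, stricter q values and an overlap of 50%. DESeq2 was also run with the wild-type libraries summed to 1 sample. Leaving the Pcgf2/4-/- or Pcgf3/5/6-/- libraries out of the fit, a −log10 q of at least 10 and tests between knockout lines were added after the values were seen. All 10 members are named, with the most changed gene of each list per comparison (not all printed) and, for Ezh1, Ezh2, Eed and Suz12, the 2 genes of most similar pattern. Members and lists were chosen with earlier results of these data known.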

Additional observations from a re-analysis of the deposited data

Results flagged for a closer look

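Ezh2 was marked for a closer look because it moved in opposite directions in 2 lines that share the loss of Pcgf1: it was lower than wild-type in both Pcgf1-/- libraries and higher in both Pcgf1/2/4-/- libraries. The difference between the lines, tested in the edgeR fit, was 1.16 on the log2 scale (SE 0.11, adjusted p = 8.7e-06), and it kept its call under all alternatives run for it, at 1.06 to 1.27. Knockout lines were isolated as clones, per the labels, so clone and genotype cannot be told apart.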

How the results depend on the processing

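With only the 2 groups compared in the fit, 0 members were called in Pcgf1-/-, 6 in Pcgf1/2/4-/- and 8 in Pcgf3/5/6-/-, while Pcgf2/4-/- (0), Pcgf3/5-/- (4) and Pcgf6-/- (1) kept their counts. With counts thinned to the smallest total, 1 was called in Pcgf1-/-, 1 in Pcgf3/5-/- and 1 in Pcgf1/2/4-/-. DESeq2 called 2 in Pcgf6-/- and 1 in Pcgf1/2/4-/-. In Pcgf2/4-/- 1 member, Ezh2, was called with wild-type as 2 libraries, under the replicate block and with loess offsets. Leaving out 1 replicate gave 0 to 2 members in Pcgf1-/-, 0 to 1 in Pcgf2/4-/-, 0 to 3 in Pcgf3/5-/-, 0 to 1 in Pcgf6-/-, 1 to 2 in Pcgf1/2/4-/- and 4 to 5 in Pcgf3/5/6-/-. The cause was not tested.

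Correlations between lines of the deviations of same-numbered libraries ran from -0.501 to 0.409. They were above 0.1 among Pcgf1-/-, Pcgf3/5-/- and Pcgf6-/- (0.409, 0.239 and 0.217) and not in the other pairs of lines, so the numbers were not taken to pair the libraries. The replicate block was fitted with wild-type as 2 libraries, which alone called Suz12 in Pcgf1-/- (adjusted p = 0.0109) and Ezh2 in Pcgf2/4-/- (0.0121) as well; with the block these were 0.0194 and 0.0218, and it changed no call of a member. Calls over all genes in Pcgf2/4-/- were 3340 with wild-type as 2 libraries and 2952 with the block added. Over all genes, calls went from 3526 to 1656 in Pcgf1-/-, from 2272 to 536 in Pcgf2/4-/-, from 3862 to 7914 in Pcgf1/2/4-/- and from 7078 to 10831 in Pcgf3/5/6-/- with only the 2 groups in the fit. Thinning gave 1390 in Pcgf1-/-, 687 in Pcgf2/4-/-, 530 in Pcgf3/5-/- (from 2156), 3387 in Pcgf6-/- (from 5982) and 2512 in Pcgf1/2/4-/-. Loess offsets gave 3457 in Pcgf2/4-/- and 3507 in Pcgf3/5-/-, and wild-type as 2 libraries 3333 in Pcgf3/5-/-. Leaving out the Pcgf2/4-/- libraries gave 3415 in Pcgf3/5-/- and 5834 in Pcgf1/2/4-/-. Leaving out 1 replicate gave as few as 2005 in Pcgf1-/- (without its replicate 1), 1059 in Pcgf3/5-/- (without its replicate 1) and 1800 in Pcgf1/2/4-/- (without its replicate 2). The share of calls that were higher went from 35.3% to 46.3% in Pcgf2/4-/- with loess offsets, and in Pcgf1/2/4-/- from 32.9% to 48.8% in DESeq2 and 49.8% with loess offsets, which also moved the median of all genes there from -0.11 to -0.005.

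Values that changed sign did not pass the threshold in either setting, except Mtf2 in Pcgf1/2/4-/- with loess offsets (-0.62). The others are listed only for Ezh2, Eed, Suz12, Phf19 and members called in the same line in some setting. They were Ezh2 in Pcgf3/5-/- with thinned counts (0.02) and Eed there without the filter, with loess offsets and with thinned counts (-0.02 each). With loess offsets in Pcgf6-/- they were Eed (0.00), Suz12 (0.08) and Phf19 (-0.37). Leaving out 1 replicate in turn changed the sign of Eed (-0.43 to 0.11) and Phf19 (-0.06 to 0.89) in Pcgf1-/-, Eed (-0.20 to 0.61) and Rbbp4 (-0.03 to 0.93) in Pcgf2/4-/-, Eed (-0.20 to 0.19) in Pcgf3/5-/- and Phf19 (-0.25 to 1.47) in Pcgf1/2/4-/-. Counting the values of all members, loess offsets changed the sign of 16 of 63 values, thinned counts 8, and RLE factors, DESeq2, no filter and only the 2 groups 5 each.

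Of the wild-type SUZ12 peaks, an overlap of at least 50% kept 73.6% in Pcgf1-/-, 90.6% in Pcgf2/4-/-, 79.9% in Pcgf3/5-/-, 76.9% in Pcgf6-/-, 54.4% in Pcgf1/2/4-/- and 65.9% in Pcgf3/5/6-/-. For H3K27me3 the shares, in the same order, were 87.0%, 91.2%, 82.5%, 52.6%, 15.0% and 79.7%. With −log10 q of at least 10 in both lists, SUZ12 shares were 76.9% in Pcgf1-/-, 59.9% in Pcgf1/2/4-/- and 68.5% in Pcgf3/5/6-/-, and H3K27me3 shares were 92.8%, 98.5%, 93.1%, 49.5%, 10.8% and 89.2% in the order above. At that threshold 0 members kept a wild-type H2AK119ub1 or PCGF6 peak. Pcgf1/2/4-/- had the lowest share of both in every setting. The 9 wild-type counts of Phf19 limit the precision of its folds, and 1 list per antibody and line leaves peak shares without a replicate check.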
